A study of Mus musculus with 5 samples.

Results

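The genes of the AP-1 transcription factors were examined for sites at which PU.1 gained binding in mouse leukaemia cells. The 10 genes considered were Jun, Junb, Jund, Fos, Fosb, Fosl1, Fosl2, Atf3, Batf and Batf3, out of 21631 protein-coding genes on the autosomes and chromosome X. A site was tied to a gene when its summit lay inside the gene or within 50 kb of either end, and sites within 10 kb of an end were also counted separately.

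The chromatin immunoprecipitation libraries came from AML-246, an acute myeloid leukaemia of C57BL/6 mice with deleted p53 (p53-/-) and a GFP-linked short hairpin against PU.1 that doxycycline controls. PU.1 high cells were spleen cells of leukaemic mice given doxycycline for 2 days, which shut the hairpin off (3 libraries), and PU.1 low cells were spleen cells of untreated leukaemic mice (2 libraries). The p53 deletion and the hairpin are common to both groups. The libraries of a group are labelled technical replicates of a single leukaemia, and the antibody was T-21.

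The deposited data are 1 list of 11111 peak summits, of which 11106 lay on the chromosomes used. Its name sets high against low, so it is read as sites with more PU.1 in PU.1 high than in PU.1 low cells. Each summit has a deposited −log10 score from the peak caller, with a median of 8.56 and quartiles of 5.78 and 11.9 (the labels do not say if it comes from p-values or q-values). The score ranks how clearly a site was called and is not a fold change. The list has no value per library, so read depth and the spread between libraries are unknown, and nothing below is a test between treated and untreated mice. Expression of cell type markers was not measured in the values analysed here.

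AP-1 is a set of dimers of basic leucine zipper (bZIP) proteins that bind TGANTCA. JUN proteins pair with each other or with FOS proteins, while FOS proteins need a JUN partner. ATF3 and the BATF proteins also pair with JUN proteins, and BATF and BATF3, which lack a transactivation domain, bind composite elements with IRF4 or IRF8. In macrophages, AP-1 and PU.1 are known to occupy many of the same enhancers, and JUN has been described as a coactivator of PU.1.

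PU.1 sites were listed near most of these genes, but the genes differed widely. Of the 10, 8 had a site inside the gene or within 50 kb, and Jun and Fosl1 had none. The background was 50.3% of all protein-coding genes. Within 10 kb of an end, 5 of the 10 had a site (Junb, Fosb, Atf3, Batf and Batf3), against a background of 22.4%. The 95% Wilson intervals of the shares, 49.0% to 94.3% at 50 kb and 23.7% to 76.3% at 10 kb, cover counting error only, and neighbouring genes are not independent. The background share lies inside the interval at 50 kb and just below the interval at 10 kb. Because the genes were chosen with results known, this comparison is not a test, and neither share was tested. Among genes of the same length range as the AP-1 genes (1.84 to 22.4 kb), the background shares were 50.3% and 22.6%. Counted from the transcription start instead of both gene ends, 3 of the 9 genes with a known start (Junb, Fosb and Atf3) had a site within 10 kb, against 17.6% of protein-coding genes. With both gene ends used again and a score of at least 10 required, 3 of 10 had a site within 10 kb (Atf3, Batf and Batf3), against 9.08%.

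**Figure D1:**
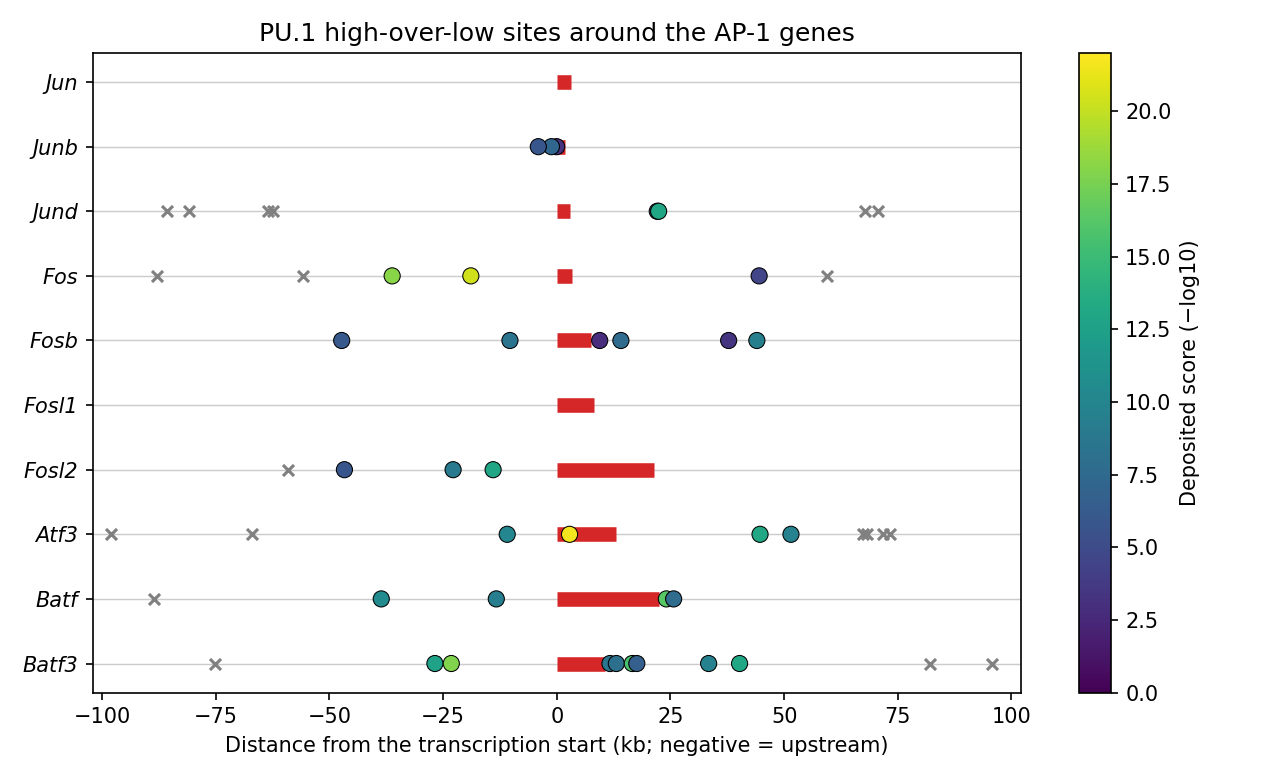
Each line is an AP-1 gene drawn in its direction of transcription (red bar), with sites placed by distance from the transcription start in kb. Circles are sites inside the gene or within 50 kb of either end, coloured by the deposited −log10 score, and grey crosses are sites farther away. Fosl1 is drawn from its lower end. Jun and Fosl1 have no site in this range, and the sites of Junb lie directly upstream of its start.

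The promoter sequences are shown for the 4 genes whose promoters contain GGAAGT, the ETS core bound by PU.1 and its relatives, because a listed summit falls in 1 of them, that of Junb. Each run is the 250 bases before the transcription start, 5′ to 3′ on the gene's strand, from RefSeq (GRCm38.p6, the coordinates of mm10). Capitals mark GGAAGT on either strand, so that it reads ACTTCC where it stands on the other strand.
Junb promoter, chr8:84978749-84978998, minus strand: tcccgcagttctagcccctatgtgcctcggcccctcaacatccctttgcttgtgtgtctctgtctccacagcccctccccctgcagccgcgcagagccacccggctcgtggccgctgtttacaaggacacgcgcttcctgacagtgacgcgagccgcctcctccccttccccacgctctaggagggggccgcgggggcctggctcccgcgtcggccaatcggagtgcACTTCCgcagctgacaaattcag
Fos promoter, chr12:85473640-85473889, plus strand: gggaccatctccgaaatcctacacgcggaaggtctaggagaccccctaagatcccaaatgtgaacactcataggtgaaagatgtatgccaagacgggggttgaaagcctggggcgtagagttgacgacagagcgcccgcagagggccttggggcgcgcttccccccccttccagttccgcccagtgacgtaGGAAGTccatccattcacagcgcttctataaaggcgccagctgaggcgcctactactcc
Batf promoter, chr12:85686470-85686719, plus strand: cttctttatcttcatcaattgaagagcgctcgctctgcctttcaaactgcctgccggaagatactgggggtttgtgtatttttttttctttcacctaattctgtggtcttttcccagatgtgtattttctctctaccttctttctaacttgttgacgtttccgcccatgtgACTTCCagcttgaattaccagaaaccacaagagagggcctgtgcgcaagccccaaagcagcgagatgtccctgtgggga
Batf3 promoter, chr1:191098164-191098413, plus strand: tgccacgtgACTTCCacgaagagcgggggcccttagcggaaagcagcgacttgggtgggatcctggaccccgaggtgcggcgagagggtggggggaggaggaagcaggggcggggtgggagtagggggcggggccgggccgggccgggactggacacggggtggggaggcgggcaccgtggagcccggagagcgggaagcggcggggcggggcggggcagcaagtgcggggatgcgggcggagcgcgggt

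In the Junb promoter, the summit at chromosome 8, 84978772 lies 24 bases before the start. That base stands directly before the capitals, 1 base from an ETS core at 84978766 to 84978771. Promoter windows (250 bases before to 50 after a start) were matched for 9 of the 10 genes, without Fosl1, and Junb was the only one of the 9 with a summit in its window. Of the 17274 protein-coding genes with such a window, 3.03% had one. Across the genome, 575 summits lay in a promoter window, and 34.3% of them had GGAAGT within 10 bases. GGAAGT was in a window of 63.0% of these 575 summits, against 23.1% of windows without a summit. The first share counts summits, and for a summit in several overlapping windows a match in any of them sufficed. The second share counts single windows, so the shares are not like for like. This motif was chosen after the Junb summit had been seen, the windows were not matched for base composition, and a match is a description, not a shown contact.

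Other motifs, searched on both strands of the 300-base windows, included none that all 9 matched AP-1 promoters contain. The PU.1 core GAGGAAGT, which contains both GGAAGT and GAGGAA, was in 0 of 9, against 3.22% of all 32619 windows. The shorter GAGGAA was in the windows of Atf3 and Batf3, against 28.2% of all. The AP-1 site TGANTCA (7.85% of all) and the cAMP response element TGACGTCA (1.8%) were in 0 of 9 in these exact letters. The CArG box, for which no letters are given here, was also in 0 of 9 (1.64% of all). Bases outside these windows were not searched, so a count of 0 does not show that Fos or another gene lacks the motif farther upstream. A match to the NF-kB consensus was in the windows of Fos, Fosb and Fosl2, against 4.53% of all. GGAAGT itself was in 4 of 9, against 23.9% of all. In each of these comparisons the AP-1 counts are of genes, whereas the shares of all are of windows, of which a gene can have several.

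Junb encodes a JUN protein that restrains myeloid proliferation in mice. Junb (chromosome 8, 84976909 to 84978748) had 3 sites, all upstream of its start and all within 10 kb. Their scores were 3.15 at 0.024 kb, 7.29 at 1.18 kb and 5.87 at 4.06 kb upstream. All of them were below the median of all sites, and the promoter summit stood at percentile 5.12 of the list. At least 3 sites within 10 kb were found at 1.37% of protein-coding genes. Junb thus had the sites closest to a start and none of high score.

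Jund encodes the most constantly expressed JUN protein. Jund (chromosome 8, 70697739 to 70700616) had 2 sites, 19.2 and 19.6 kb beyond its end, with scores of 5.73 and 13.0. Both lay inside Gm3336, a predicted protein-coding gene, 1.36 and 1.68 kb from its nearer end. The summits are less than 500 bases apart and merged into 1 site when such summits were joined.

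Jun encodes c-Jun, the founding member of AP-1. The nearest site to Jun (chromosome 4, 95049036 to 95052222) lay 178 kb away with a score of 3.44, and the next lay 198 kb away with a score of 10.8. The nearest site to Fosl1 (chromosome 19, 5447698 to 5455938), the gene of Fra-1, lay 152 kb away, scored 2.06 and stood 0.110 kb from an end of Sf3b2, a splicing factor gene. Having no site within 100 kb is common, since 35.7% of protein-coding genes have none. A gap wider than that of Jun was found at 24.9% of protein-coding genes. A site bound alike in PU.1 high and PU.1 low cells would not be expected in this list, so the lack of one does not show that a gene is unbound.

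Fos encodes c-Fos, a classical immediate early factor. Fos (chromosome 12, 85473890 to 85477274) had 0 sites within 10 kb and 3 within 50 kb. The site 18.9 kb upstream (chromosome 12, 85454972) scored 20.4 and the site 36.2 kb upstream (85437714) scored 18.1, while a site 41.1 kb beyond its end scored 4.62. The upstream sites stood at percentiles 96.4 and 94.4 of all scores, so the high-scoring sites of Fos lay away from its promoter. At least 3 sites inside or within 50 kb were found at 13.9% of protein-coding genes. No end of another protein-coding gene was nearer to any of the 3 than that of Fos. The highest-scoring of them lay inside Gm38543, a long noncoding RNA gene.

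Fosb encodes FosB, a close relative of c-Fos. Fosb (chromosome 7, 19302696 to 19310118) had 6 sites, and at least 6 were found at 1.78% of protein-coding genes. None of the 6 scored 10 or more. The scores ran from 2.76 to 9.40 with a median of 6.86, and the lowest was the only one within 5 kb, 2.09 kb beyond the end of the gene. The other site within 10 kb, with a score of 7.67 at 6.70 kb, lay inside Rtn2, a reticulon gene, 0.173 kb from its end. Of the 6 sites, 4 were closer to an end of Rtn2, Vasp or Ercc1 than to Fosb.

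Fosl2 encodes Fra-2. Fosl2 (chromosome 5, 32136472 to 32157840) had 3 sites, all upstream and none within 10 kb. They scored 13.0 at 14 kb, 9.01 at 22.8 kb and 5.90 at 46.7 kb upstream of the start. The farthest was closer to an end of Babam2, a gene of a DNA repair complex, at 4.77 kb. Fos and Fosl2 thus shared an arrangement of upstream sites beyond 10 kb, with the nearest site scoring highest in each.

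**Figure D2:**
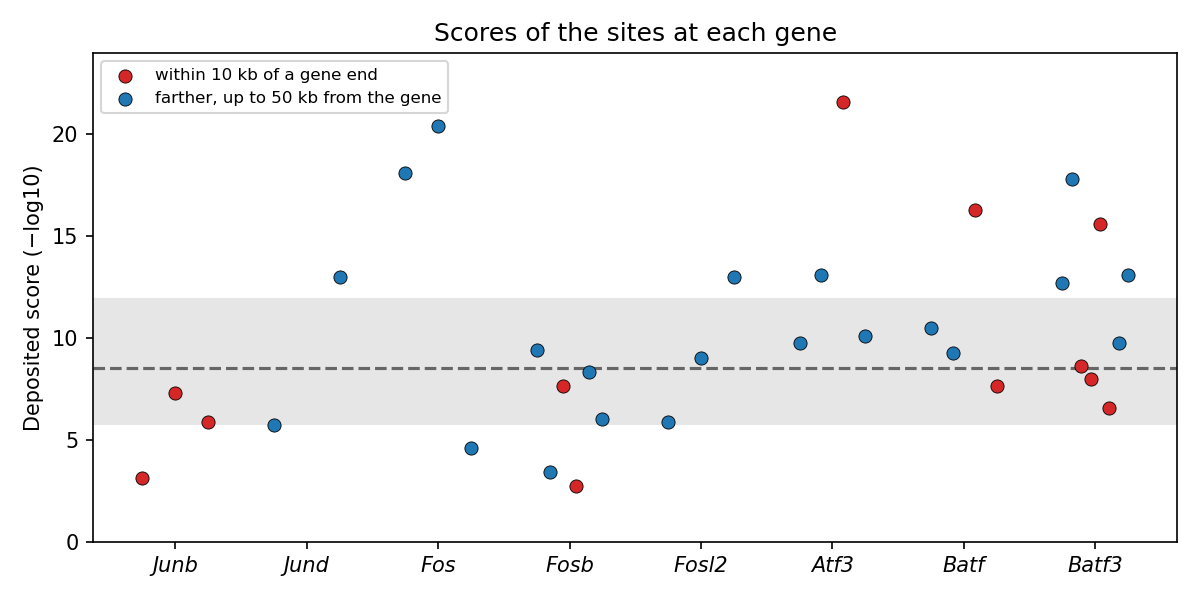
Deposited −log10 score of every site inside or within 50 kb of each AP-1 gene with a site, ordered along the chromosome within a gene. Red points lie within 10 kb of a gene end and blue points lie farther away; the grey band and dashed line are the quartiles (5.78 and 11.9) and the median (8.56) of all 11106 sites. All 3 Junb sites lie below the median, and the highest points belong to Atf3 (21.6) and Fos (20.4).

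Atf3 encodes a stress-induced factor that represses many inflammatory genes in macrophages. Atf3 (chromosome 1, 191170296 to 191183333) had the highest-scoring site of all 10 genes, with a score of 21.6 at 191180523, 2.81 kb downstream of its start and inside the gene. It was the only site inside any of the 10 genes. Scores above 20 were given to 3.89% of all sites, and only this site and that at −18.9 kb of Fos reached that level here. Atf3 also had a site 10.9 kb upstream with a score of 10.1, and sites 38.4 and 31.7 kb beyond its end with scores of 9.77 and 13.1.

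Batf encodes a bZIP partner of JUN proteins known mainly from lymphocytes and dendritic cells. Batf (chromosome 12, 85686720 to 85709087) had 4 sites, as did Atf3, and at least 4 were found at 7.10% of protein-coding genes. The closest scored 16.3 at 1.76 kb beyond the end of the gene, followed by 7.67 at 3.37 kb beyond it. The upstream sites scored 9.29 at 13.3 kb and 10.5 at 38.6 kb, and the farther one was closer to Jdp2 (8.24 kb). Both sites within 10 kb of Batf were therefore at its 3′ side.

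Batf3 encodes the factor that type 1 conventional dendritic cells need to develop. Batf3 (chromosome 1, 191098414 to 191108943) had 8 sites, the most of the 10 genes, and at least 8 were found at 0.435% of protein-coding genes. Downstream of its end, 4 sites stood within 6.00 kb of each other, at 1.12, 2.54, 6.10 and 7.12 kb, with scores of 8.64, 8.0, 15.6 and 6.57. At least 4 sites within 10 kb were found at 0.314% of protein-coding genes. The highest-scoring of the 8, with a score of 17.8, lay 23.2 kb upstream and inside Nsl1, a kinetochore gene, as did a site of score 12.7 at 26.8 kb. The start of Batf3 had no site within 10 kb, so its nearest sites, like those of Batf, were at the 3′ side.

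**Figure D3:**
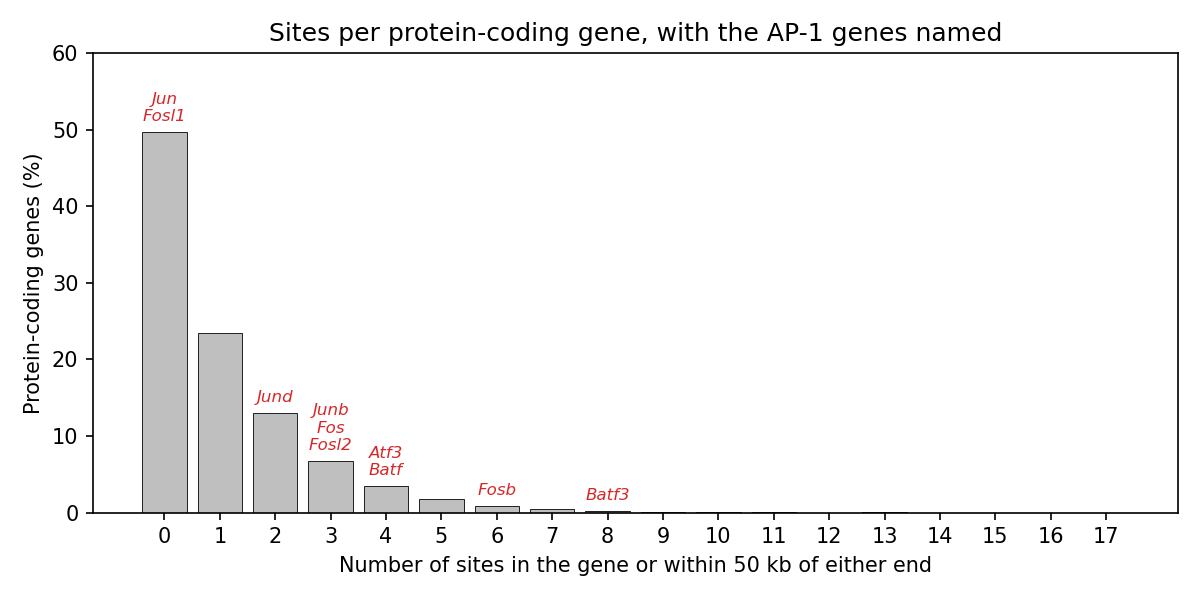
Share of protein-coding genes (%, n = 21631) by the number of sites inside the gene or within 50 kb of either end, with the AP-1 genes named above the bar of their own number. Jun and Fosl1 stand in the bar of 0 sites with 49.7% of genes, and Fosb with 6 and Batf3 with 8 stand in the thin upper tail.

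Batf3 and Atf3 lie 61.4 kb apart on chromosome 1 and are transcribed towards each other, with Fam71a, another protein-coding gene, between them. That gap held 6 sites, and 2 of them (scores 9.77 and 13.1) lay within 50 kb of both genes. Fos and Batf lie 209 kb apart on chromosome 12, with Jdp2, the gene of another JUN partner, between them. Of the 5 sites in that gap, 1 lay 0.402 kb beyond the lower end of Jdp2 with a score of 11.0. From 50 kb before the first gene to 50 kb after the last, the Batf3 to Atf3 interval held 10 sites with a median score of 11.4 and the Fos to Batf interval 9 with a median of 10.5.

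**Figure D4:**
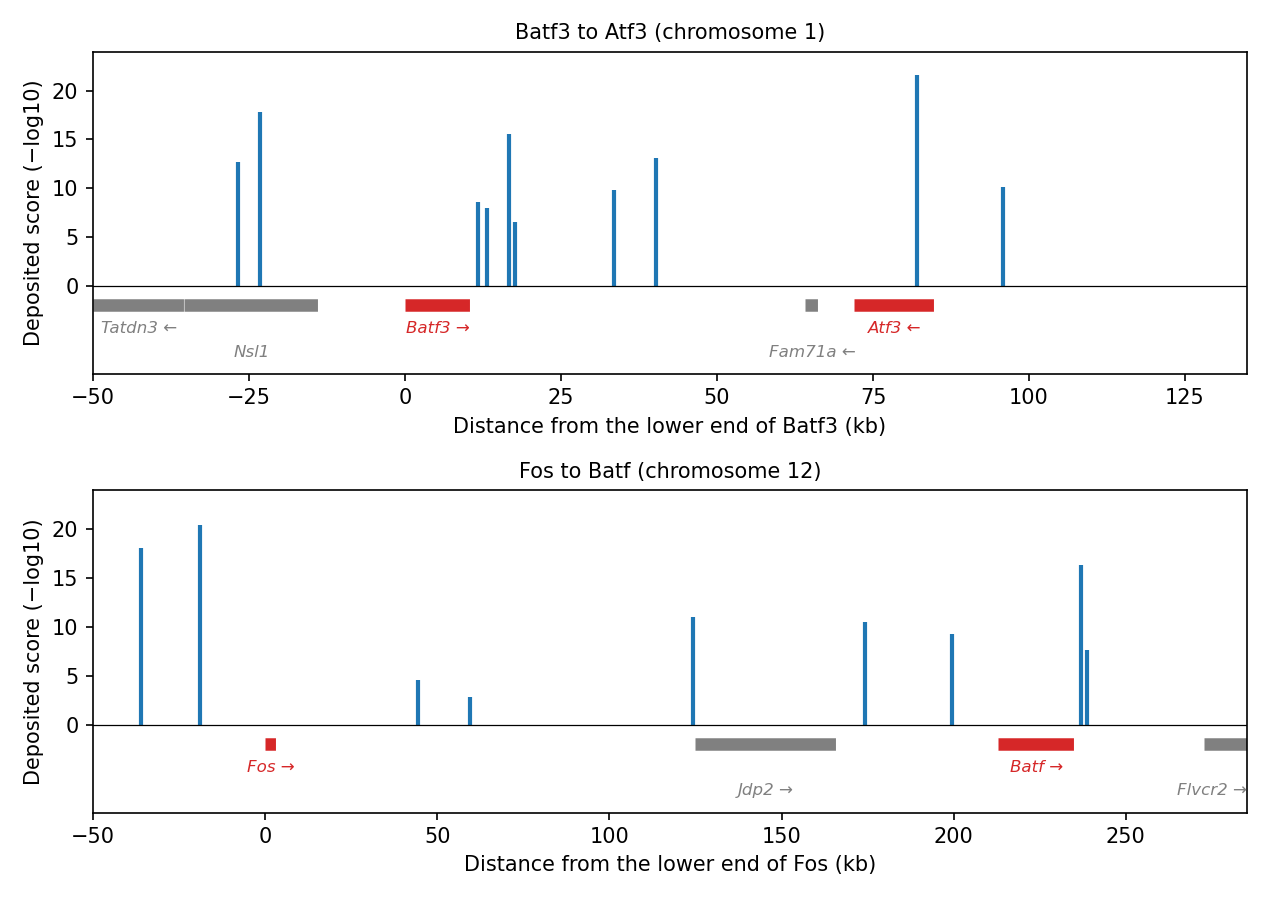
Sites (blue lines, height is the deposited −log10 score) from 50 kb before the first to 50 kb after the last AP-1 gene of the chromosome 1 and chromosome 12 intervals, by distance in kb from the lower end of the first gene. AP-1 genes are red, other protein-coding genes grey, and arrows give the direction of transcription where known. The 4 sites beyond the end of Batf3 stand together, and the start of Fos has no site on either side for 18.9 kb.

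Together, the 10 genes had 33 pairings of gene and site, made by 31 sites, as 2 sites fell to both Atf3 and Batf3. Their median score was 9.01 (quartiles 6.31 and 13.0), against 8.56 for all sites, and 12 of the 31 (38.7%) scored at least 10, against a background of 37.4%. The scores of sites at these genes were thus near those of the whole list. The 12 near sites, those up to 10 kb from an end, had a median of 7.67, and the other 19 had one of 9.77. Relative to the direction of transcription, 15 of the 33 pairings were upstream, 17 downstream and 1 inside the gene. All sites of Junb and Fosl2 were upstream, and both sites of Jund were downstream.

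Only 8 of the 31 sites (25.8%) lay inside any protein-coding gene, against 52.0% of all sites. The AP-1 genes are short, and 43.0% of protein-coding genes are longer than the longest of them. Whether gene length bears on the lower share was not tested. A further 5 of the 31 sites (16.1%) were inside a long noncoding RNA gene and outside every protein-coding gene, against 8.46% of all sites. Only sites outside protein-coding genes can enter this count, and they made up a larger share here than in the whole list. The contrast is therefore not separate from that of 25.8% against 52.0%. These 5 sites included the highest-scoring Fos site, in Gm38543, and both sites that fell to Atf3 and Batf3 alike, in Gm31640 and Gm31696. The others were the Fosb site 2.09 kb beyond its end, in Gm26802, and the Fosl2 site nearest to its start, in Gm36665. The count for noncoding genes was chosen after the values were seen. For 20 of the 31 sites an AP-1 gene had the nearest end of any protein-coding gene, and for 11 another gene did, namely Gm3336, Vasp, Rtn2, Ercc1, Babam2, Fam71a, Jdp2, Tatdn3 or Nsl1. When a site counted only for the gene with the nearest end, Batf3 kept 5 sites, Fos 3, Junb 3, Batf 3, Fosl2 2, Fosb 2, Atf3 2 and Jund 0.

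By family, the bZIP partner genes had the most sites. Atf3, Batf and Batf3 had 14 different sites with a median score of 10.3, and all 3 genes had a site within 10 kb. The 4 Fos family genes had 12 sites with a median of 8.01, and 1 of the 4, Fosb, had a site within 10 kb. The 3 Jun family genes had 5 sites with a median of 5.87, and Junb alone had a site within 10 kb. These groups are small and were not tested against each other.

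The limits of 50 and 10 kb cut through the sites of some genes. Just inside 50 kb stood sites at 47.2 kb from Fosb (score 6.05) and 46.7 kb from Fosl2 (5.90). Just outside stood sites at 54.2 and 55.3 kb from Atf3 (6.57 and 15.6, both sites of Batf3). Others just outside were at 55.9 and 56.0 kb from Fos (15.4 and 2.82). Just inside 10 kb stood the Batf3 site at 7.12 kb, and just outside those at 10.2 kb from Fosb (8.35) and 10.9 kb from Atf3 (10.1).

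The genes around AP-1 were counted in the same way, in 7 lists chosen by function. Of 19 other bZIP genes, 11 (57.9%) had a site within 10 kb of an end and 16 (84.2%) within 50 kb, against the backgrounds of 22.4% and 50.3%. Nfe2l1, a stress response factor gene, had the highest-scoring near site (13.0, 2.79 kb upstream), followed by Creb1, a cAMP response factor gene (11.1, inside the gene). Batf2 and Ddit3 had none within 50 kb.

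Of 12 genes for factors that bind DNA together with AP-1, 4 (33.3%, background 22.4%) had a site within 10 kb. Within 50 kb, 10 (83.3%, background 50.3%) had a site. Ets2, an ETS factor gene, had a site of score 21.0 at 7.80 kb beyond its end, and Smad4, the common SMAD of TGF-beta signalling, one of 7.59 at 1.09 kb. Irf8, the gene of a BATF3 partner, and Nfatc4 had none within 50 kb. Irf4, the gene of the other IRF partner, had 0 sites within 10 kb and 3 within 50 kb, the highest with a score of 39.0. Irf4 is named here after its values were seen.

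Upstream of AP-1, 7 of 23 MAP kinase chain genes (30.4%, background 22.4%) had a site within 10 kb. Within 50 kb, 20 (87.0%, background 50.3%) had a site. Mapk14, the gene of p38 alpha, had one of score 16.4 and Map2k3, a p38 activator gene, one of 12.5, both inside the gene, whereas Map2k5 had none within 50 kb. Of 6 genes of SRF, a factor that drives Fos transcription, and of SRF cofactors, 1 had a site within 10 kb and 3 within 50 kb. That gene was Mrtfa (score 21.4 at 3.02 kb), and Elk1 and Elk4 had none within 50 kb. Of 6 genes of AP-1 protein turnover, 2 had a site within 10 kb and 5 within 50 kb. They were Itch, a ubiquitin ligase gene of JUN proteins (13.9, inside the gene), and Cop1, another (3.48 at 6.51 kb), while Senp1 had none within 50 kb.

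Immediate early genes induced with Fos had a site within 10 kb in 9 of 14 cases (64.3%, background 22.4%), whereas Fos itself had none there. Within 50 kb, 13 (92.9%, background 50.3%) had a site. Nr4a1 and Myc had the highest-scoring sites within 10 kb, with scores of 15.9 and 14, and Egr1 had none within 50 kb. Of 14 known AP-1 target genes, 9 (64.3%) had a site within 10 kb and 11 (78.6%) within 50 kb. Tnf had one of score 12.7 inside the gene and Il1b one of 11.7 at 9.83 kb. Of the 4 metalloproteinase genes in this list, Mmp12 and Mmp9 had a site inside the gene, with scores of 11.1 and 4.56, and Mmp13 and Mmp3 had none within 50 kb. Mmp12 and Mmp9 are named here after their values were seen. The lists were not tested against the background or against each other.

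**Figure D5:**
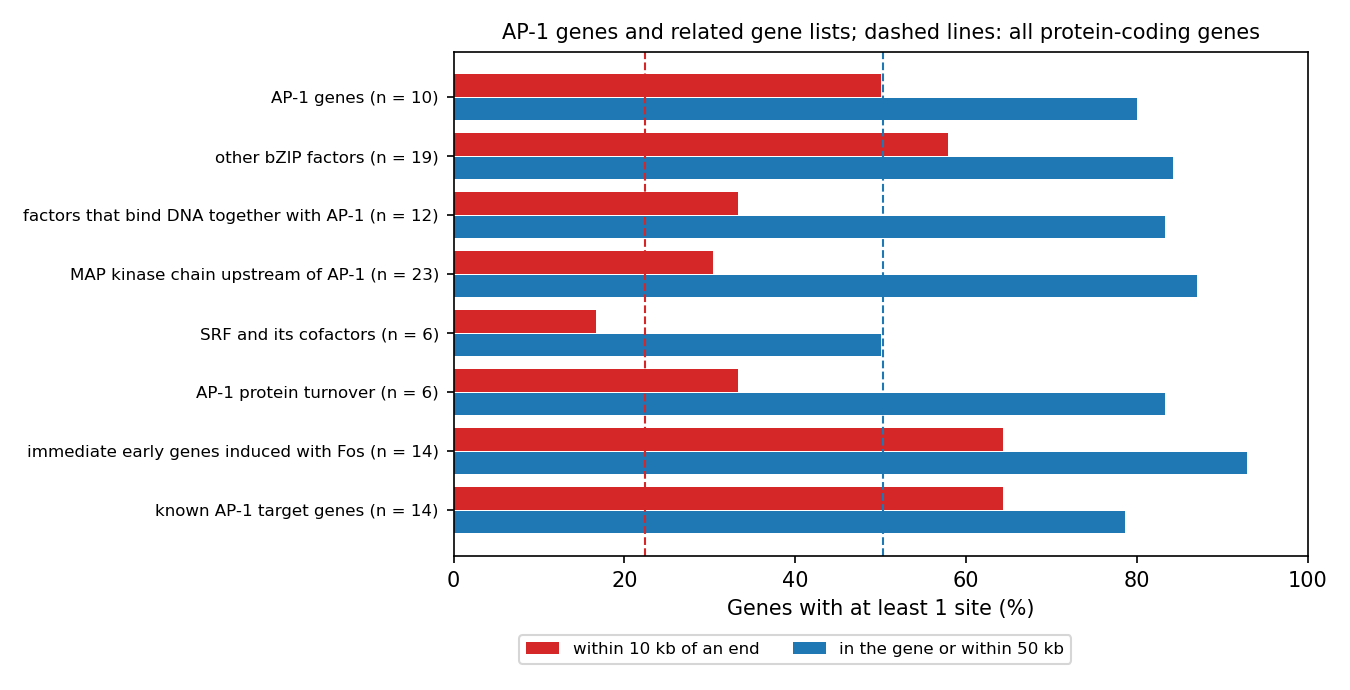
Percentage of genes that had a site up to 10 kb from a gene end (red) and inside the gene or within 50 kb (blue) for the AP-1 genes and the 7 related lists, with the number of genes in each. Dashed lines give all protein-coding genes (22.4% and 50.3%). The red bars of the AP-1 genes, other bZIP factors, immediate early genes and AP-1 targets reach past 40%, and that of SRF and its cofactors (16.7%) stays below its line.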

How the data were processed

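PU.1 ChIP-seq libraries of 3 PU.1 high and 2 PU.1 low samples are represented by 1 list of summits made by the authors. The tools named by the submitters' processing notes are CASAVA 1.8.2 and MACS2, with genome build mm10. The deposited value of a summit is a score on a −log10 scale (a p-value or q-value), used as the authors gave it. Depth is unknown, and so are MACS2 settings, aligner, read filters and pooling of libraries (not given in the sources used here).

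Summits (1-based) were tied to RefSeq genes of GRCm38.p6 by distance to the gene span or its ends. Transcription starts and promoter sequences came from the RefSeq promoter table. Counts by window were checked on simulated sites. Python 3.11.15, pandas 2.3.3, numpy 2.4.6 and scipy 1.17.1 were used. No test was run: shares are set beside those of all protein-coding genes. The alternatives were other windows, score minimums, transcription starts, nearest-gene assignment, merged summits and other backgrounds. Named in each related list are the 2 genes with the highest-scoring site within 10 kb, the first 2 in alphabetical order with none within 50 kb, and genes nearer to a site than the AP-1 gene; 1 gene this rule takes is not reported here. The members and lists were chosen with earlier results of these data known.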

Additional observations from a re-analysis of the deposited data

How the results depend on the processing

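Within 50 kb, 8 of 10 AP-1 genes had a site, and 6 to 8 did with a score of at least 5 or 10, with transcription starts, with nearest-gene assignment, and with windows of 25 or 100 kb. The count was 2 of 10 with a 1 kb window, near the background share of 19.4%, and 5 of 10 with a 5 kb window, against 23.4%. Both windows hold fewer sites by construction. Within 10 kb it was 5, against 3 with a score of at least 10 and 3 with transcription starts only. The background share of 50.3% became 19.4%, 23.4%, 38.3% and 64.3% with windows of 1, 5, 25 and 100 kb, 45.2% and 26.9% with score minimums of 5 and 10, 44.3% with transcription starts, 24.6% with nearest-gene assignment and 51.7% without chromosome X. The background share of 22.4% at 10 kb became 18.7%, 9.08%, 17.6%, 16.5% and 23.0% under the last 5 of these settings. The number of sites at the AP-1 genes, 31, was 12 with a score of at least 10 and 20 with nearest-gene assignment. The median score of 9.01 was 7.67 to 9.29 under its 3 alternatives. No paired analysis was possible because the deposited list is a single call over the libraries, and no library could be left out either.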
